A study of Drosophila melanogaster with 6 samples.

Results

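The fourth chromosome of Drosophila melanogaster is the small autosome whose genes lie in a largely heterochromatic setting, and 49 of its named genes were described here in roX mutant and control females. They were taken by symbol, current or older, and each was read by the brightest probeset (a set of short probes for 1 transcript) that the platform annotation gives to that gene alone. All 49 lie on chromosome 4 in the RefSeq gene table, and 42 of them had such a probeset, among 11982 genes so measured on the arrays. The genes pan, CaMKI, lgs, PIP4K, PlexA, pho and Arl4 had none and were not analysed here. Thd1 is listed in the annotation as Tdg.

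Whole female larvae of the third instar were compared on 6 Affymetrix arrays, 3 per genotype, each with RNA from a separate pool of 50 larvae. The mutants had the genotype roX1SMC17ADf(1)52; [w+4D4.3] and are roX1- roX2- by the labels, and the controls had the same genotype with the added transgene [hsp83-roX1+], in which the hsp83 promoter drives roX1. The controls thus carried the mutant X chromosome too and are no wild-type stock. Values are log2 expression values from robust multi-array average (RMA) as deposited, and every difference is mutant minus control.

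As background, roX RNAs are noncoding RNAs of the complex that doubles the output of the single male X chromosome. Chromosome 4 is thought to descend from an X chromosome, and its active genes are bound by the protein Pof while the chromosome also carries the heterochromatin protein HP1 and methylated histones. In males, loss of the roX RNAs is known to lower the expression of genes on chromosome 4, and the series asks what their loss does in females. The genes described here include regulators of the eye, wing and nerve cell, secreted signals, synaptic proteins and proteins that every cell uses.

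Of the 42 measured genes, 36 passed a filter on level (a mean over the 6 arrays of at least 4.51) and were tested with limma over the whole table. Rnf11, a RING finger gene, rose in the mutants and was the only one of the 36 called at a limma adjusted p under 0.05, and none was called lower. Over all 8882 tested genes the share called was 0.529%, with 0.372% higher and 0.158% lower, so 1 call among 36 is a small count on which no rate can rest. At an unadjusted p under 0.05 there were 2 of the 36, Rnf11 and the zinc transporter gene Zip102B, against 9.05% of all tested genes. The 3 mutant and 3 control values did not overlap for 3 of the 36 (Rnf11, Zip102B and CG11155), against 16.3% of all tested genes. Of these 3, Rnf11 and CG11155 were higher in the mutants and Zip102B lower, against 7.23% and 9.09% of all tested genes. In a whole larva, fewer cells of a type and less RNA per cell cannot be told apart.

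**Figure D1:**
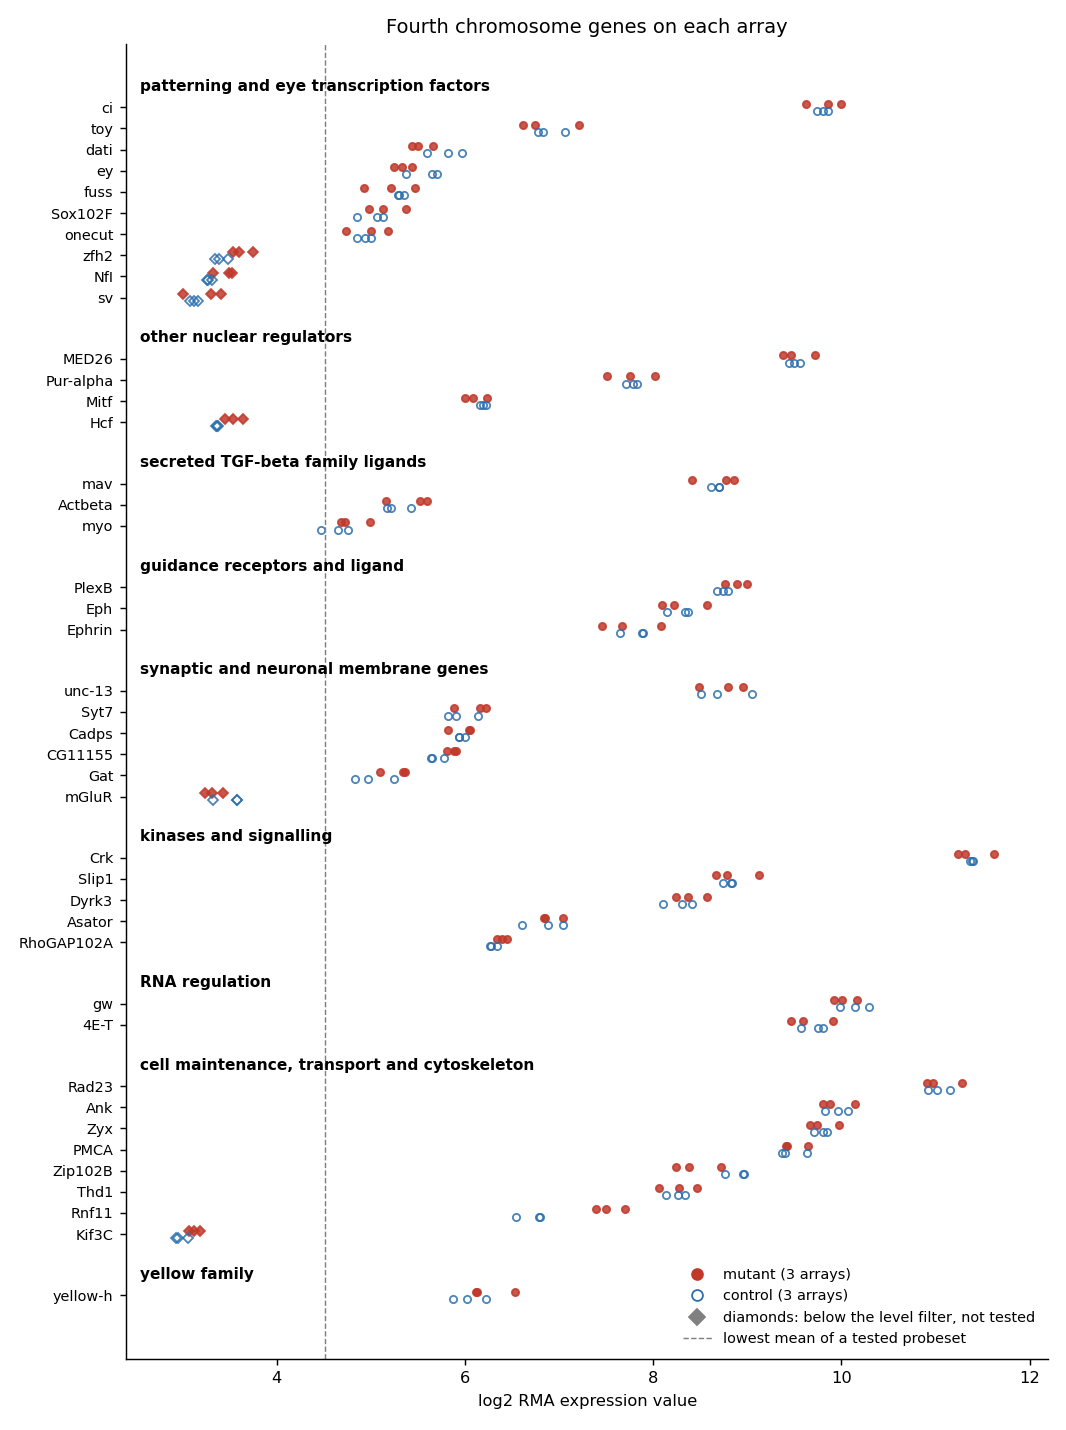
Log2 RMA expression value (x axis) of each of the 42 measured genes on each array, grouped by role; filled red symbols are the 3 mutant arrays, open blue symbols the 3 control arrays, and diamonds the 6 genes below the level filter. For most genes the red and blue symbols overlap. They do not for 7: Rnf11, Zip102B, CG11155, zfh2, NfI, Hcf and Kif3C. The gap is 0.59 for Rnf11 and only 0.04 for Zip102B, where the mutants are lower. Values of different genes come from different probes and are not comparable with each other.

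Across the 42 genes the differences were small. Their median was 0.023 on the log2 scale, with quartiles of -0.015 and 0.145, beside a median of -0.011 (quartiles -0.098 and 0.078) over all 11982 measured genes. Of the 42 differences, 29 were above 0 and 13 below, and over all genes 46.5% were above 0. The count above 0 depended on single arrays. It was 17 of 42 without mutant replicate 1 and 20 without control replicate 3. With any 1 of the other arrays left out it was 29 to 36. The other 23 measured genes of chromosome 4 had a median of -0.017, with 10 above 0. Only Rnf11 differed by more than 0.5 in either direction, which 2.64% of all genes did.

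The tests leave room for changes of moderate size. Over the 35 tested genes that were not called, the 95% intervals of the difference reached down to -0.77 for Zip102B and up to 0.56 for Gat and yellow-h. For ci the interval ran from -0.24 to 0.28, and for Crk from -0.26 to 0.27. The widest intervals for a patterning gene were those of toy, from -0.43 to 0.37, and the narrowest among all tested genes were those of RhoGAP102A, from -0.08 to 0.26, and CG11155.

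**Figure D2:**
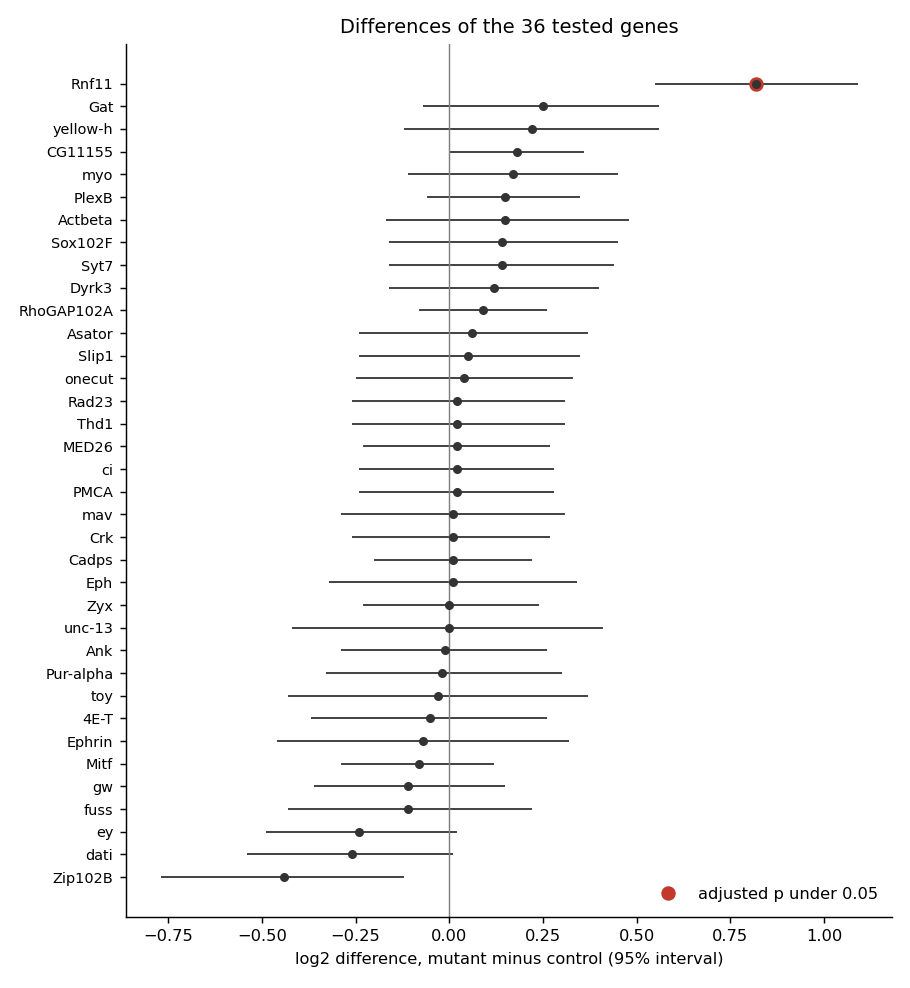
Log2 difference, mutant minus control, with its 95% interval from limma (x axis) for the 36 tested genes, sorted by size. Rnf11 (0.82) is the only point marked as called, Zip102B (-0.44) lies at the other end, and the intervals of most of the others span 0.

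Among the transcription factors of patterning and eye development, 10 of 11 genes were measured, 7 were tested and 0 were called by limma (0 also at an unadjusted p under 0.05). The gene ci encodes the zinc finger factor at the end of the Hedgehog pathway. Its values were 10.0, 9.86 and 9.62 on the mutant arrays and 9.80, 9.86 and 9.74 on the control arrays, so the control values lay inside the range of the mutant ones (difference 0.02, SE 0.11, limma adjusted p = 0.958). Both Pax family genes that start eye development, toy and ey, were tested. For toy the mutant arrays read 7.21, 6.75 and 6.62 and the control arrays 6.83, 7.06 and 6.78, again with the groups overlapping (difference -0.03, limma adjusted p = 0.967). Its dimmer tested probeset gave -0.19 and its dimmest, below the level filter, 0.11.

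For ey the values were 5.44, 5.25 and 5.33 in mutants, against 5.70, 5.65 and 5.38 in controls. The 2 highest control values stood above every mutant value, and control replicate 3 lay among the mutants (difference -0.24, SE 0.11, unadjusted p = 0.067 and limma adjusted p = 0.59). The zinc finger gene dati, singled out after its values were seen, had a like pattern, with 5.66, 5.44 and 5.50 in mutants and 5.97, 5.82 and 5.60 in controls (difference -0.26, limma adjusted p = 0.566). A second dati probeset, at a level below the filter, had -0.16. These are the lowest differences of the group, and neither gene passed.

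Sox102F, a Sox family gene, and onecut, a homeobox gene, had differences of 0.14 and 0.04, and fuss, a Ski/Sno family gene, -0.11. The remaining 3 factors, zfh2 (a zinc finger homeodomain gene), NfI (nuclear factor I) and sv (the fly Pax2), lay below the level filter with means between 3.18 and 3.52. The 3 arrays of sv read 3.41, 3.01 and 3.30 in mutants and 3.17, 3.12 and 3.08 in controls, with overlapping groups.

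Other nuclear regulators varied as little. MED26, a subunit of the Mediator complex that links activators to RNA polymerase, had 9.72, 9.47 and 9.38 in mutants and 9.56, 9.50 and 9.44 in controls (difference 0.02, limma adjusted p = 0.963). Pur-alpha, which encodes a protein that binds single-stranded nucleic acids, had a difference of -0.02, and Mitf, the regulator of lysosome genes, one of -0.08 (limma adjusted p = 0.977 and 0.794). Hcf, the host cell factor of chromatin complexes, lay below the filter. No member of this group was called.

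Among the genes are 3 for secreted ligands of the TGF-beta family, and all 3 had differences at or above 0 that did not pass. The gene mav read 8.86, 8.77 and 8.41 in mutants, against 8.70, 8.70 and 8.62 in controls, with a difference of 0.01 (limma adjusted p = 0.986). Actbeta and myo, both ligands of the activin branch, had 0.15 and 0.17 (limma adjusted p = 0.762 and 0.702), with overlapping groups. Among 10 tested genes of the receptors, transducers and other ligands of this pathway elsewhere in the genome, 0 were called by limma and 0 had an unadjusted p under 0.05.

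Of the guidance genes, PlexB, a semaphorin receptor gene, had 9.0, 8.89 and 8.76 on the mutant arrays and 8.74, 8.80 and 8.68 on the control arrays. The lowest mutant value lay below the highest control value (difference 0.15, SE 0.09, limma adjusted p = 0.674). Its 3 other probesets had -0.01, 0.16 and 0.28, the last from a probeset below the filter. The receptor tyrosine kinase gene Eph and the gene of its ligand, Ephrin, had 0.01 and -0.07, with limma adjusted p-values of 0.991 and 0.92.

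Synaptic and neuronal genes gave 1 of the 3 tested genes without overlap. CG11155, a gene of the ionotropic glutamate receptor family, had 5.88, 5.81 and 5.91 in mutants and 5.65, 5.64 and 5.78 in controls. Every mutant value was above every control value, by 0.03 at the closest pair, and the difference of 0.18 did not pass (SE 0.08, unadjusted p = 0.0536, limma adjusted p = 0.556). Its second tested probeset had 5.51, 5.51 and 5.32 in mutants, against 5.23, 5.29 and 5.15 in controls, with a difference of 0.23 that did not pass either (unadjusted p = 0.0349, limma adjusted p = 0.514).

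The priming factor gene unc-13, needed for release of synaptic vesicles, had 8.80, 8.95 and 8.49 in mutants and 9.05, 8.68 and 8.51 in controls. Its mean difference rounded to 0, with an interval from -0.42 to 0.41, so it is among the less closely measured genes. Gat, the GABA transporter gene, had 0.25, Syt7, a synaptotagmin gene, 0.14 and Cadps, which acts in release of dense-core vesicles, 0.01, and the limma adjusted p lay between 0.638 and 0.972. The metabotropic glutamate receptor gene mGluR lay below the filter in both groups. Of 6 tested neuron markers outside these genes, 0 were called by limma and 1 had an unadjusted p under 0.05, and the mean level of the 7 measured ranged from 5.16 to 5.31 on mutant arrays and from 5.31 to 5.40 on control arrays.

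Genes of kinases and signalling adaptors all had differences between 0.01 and 0.12, and none of the 5 tested was called. The adaptor gene Crk read 11.62, 11.31 and 11.24 in mutants, against 11.40, 11.39 and 11.37 in controls. The control values of Crk lay within 0.03 of each other, and the mutant values spread around them (SD 0.20 in mutants and 0.02 in controls, n = 3 each). Slip1 had 9.12, 8.79 and 8.67 in mutants and 8.84, 8.83 and 8.74 in controls, a difference of 0.05 (limma adjusted p = 0.915). Dyrk3, a kinase of the DYRK family, Asator, a tau-tubulin kinase, and RhoGAP102A had 0.12, 0.06 and 0.09.

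The RNA regulators gw, a core protein of microRNA silencing, and 4E-T, a partner of the cap-binding protein eIF4E, had small differences below 0. On the mutant arrays gw read 10.17, 10.01 and 9.92, and on the control arrays 10.29, 10.15 and 9.99 (difference -0.11, limma adjusted p = 0.795). The values of 4E-T were 9.91, 9.59 and 9.46 in mutants and 9.75, 9.80 and 9.57 in controls (difference -0.05, limma adjusted p = 0.92). The groups overlapped for both.

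Among genes of cell maintenance, transport and cytoskeleton, 7 of 8 were tested, and this group held the only called gene and the only other one with an unadjusted p under 0.05. Rad23, whose protein carries ubiquitinated proteins to the proteasome, had 11.28, 10.97 and 10.91 in mutants and 11.15, 11.02 and 10.92 in controls. For Ank, the ankyrin gene, the mutant arrays read 10.15, 9.88 and 9.80 and the control arrays 10.07, 9.96 and 9.83. Zyx, the gene of the adhesion protein zyxin, had 9.97, 9.74 and 9.67 in mutants, against 9.81, 9.85 and 9.71 in controls. In all 3 genes mutant replicate 1 was the highest array and the groups overlapped, and their differences were 0.02, -0.01 and, for Zyx, 0 after rounding.

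PMCA, the calcium pump of the plasma membrane, had 9.65, 9.41 and 9.42 in mutants and 9.37, 9.64 and 9.40 in controls (difference 0.02, limma adjusted p = 0.959). Its 2 other tested probesets had -0.07 and -0.19. Thd1, a thymine DNA glycosylase gene, had a difference of 0.02 (limma adjusted p = 0.964). The single yellow family gene here, yellow-h, had 6.13, 6.53 and 6.12 in mutants and 6.02, 5.87 and 6.23 in controls, a difference of 0.22 that did not pass (limma adjusted p = 0.697).

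Rnf11 encodes a RING finger protein of the ubiquitin system. Its called probeset read 7.70, 7.50 and 7.39 on the mutant arrays, against 6.54, 6.79 and 6.80 on the control arrays. All 3 mutant values were above all 3 control values, with a gap of 0.59 between the closest arrays. The mean was 7.53 ± 0.15 in mutants and 6.71 ± 0.15 in controls (SD, n = 3 each), a 1.76-fold rise (log2 difference 0.82, SE 0.11, 95% interval 0.55 to 1.09, limma adjusted p = 0.0419). The second probeset had 7.16, 7.07 and 6.65 in mutants and 6.60, 6.57 and 6.61 in controls, again without overlap, though mutant replicate 3 stood only 0.04 above the highest control. Its difference of 0.36 did not pass (SE 0.14, unadjusted p = 0.0337, limma adjusted p = 0.508).

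The call of Rnf11 is near the threshold, and leaving out any 1 of the 6 arrays lost it. The size of the difference then stayed between 0.73 and 0.89 and the limma adjusted p between 0.0526 without control replicate 1 and 0.215 without mutant replicate 2. With the mean of both probesets in place of the brighter one the difference was 0.59 and the limma adjusted p 0.135, and with the replicate number as a block the limma adjusted p was 0.167. Both Rnf11 probesets carry the suffix s, used for probesets that may match more than 1 transcript, as do 16 of the 42 brightest probesets. In RefSeq the Rnf11 gene overlaps PMCA, and signal from the shared stretch could not be assigned to either from these files; 15 of the 42 genes overlap some other gene. The excess of 3' over 5' signal of actin, a sign of RNA quality, was 0.871 ± 0.090 in mutants and 0.721 ± 0.021 in controls (SD, n = 3 each), and its part in the result was not tested.

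Zip102B, the gene with the next smallest p, was lower in the mutants on every array. It read 8.72, 8.38 and 8.24 in mutants, against 8.95, 8.97 and 8.76 in controls, and mutant replicate 1 lay 0.04 below control replicate 3. The difference of -0.44 (SE 0.14, 95% interval -0.77 to -0.12) had an unadjusted p of 0.0142 and did not pass (limma adjusted p = 0.396). In the order of the 114 RefSeq genes of chromosome 4, Zip102B is the 37th and Rnf11 the 38th, so these 2 genes are direct neighbours and their differences have opposite signs. The flanking genes Rad23 (36th) and PMCA (39th) both had a difference of 0.02. No test was made of this adjacency, which was noticed after the values were seen.

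**Figure D3:**
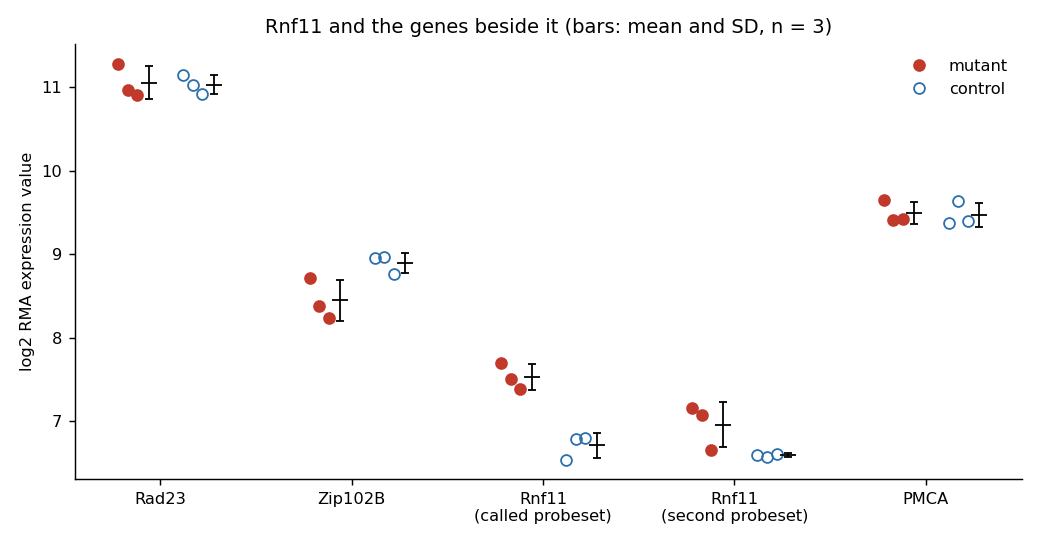
Log2 RMA expression value (y axis) on each array for Rad23, Zip102B, both probesets of Rnf11 and PMCA, which follow each other on chromosome 4; red filled points are mutant arrays 1 to 3 from left to right, blue open points control arrays 1 to 3, and bars give the mean and SD (n = 3). The groups separate for Zip102B and Rnf11, in opposite directions, and overlap for Rad23 and PMCA.

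**Figure D4:**
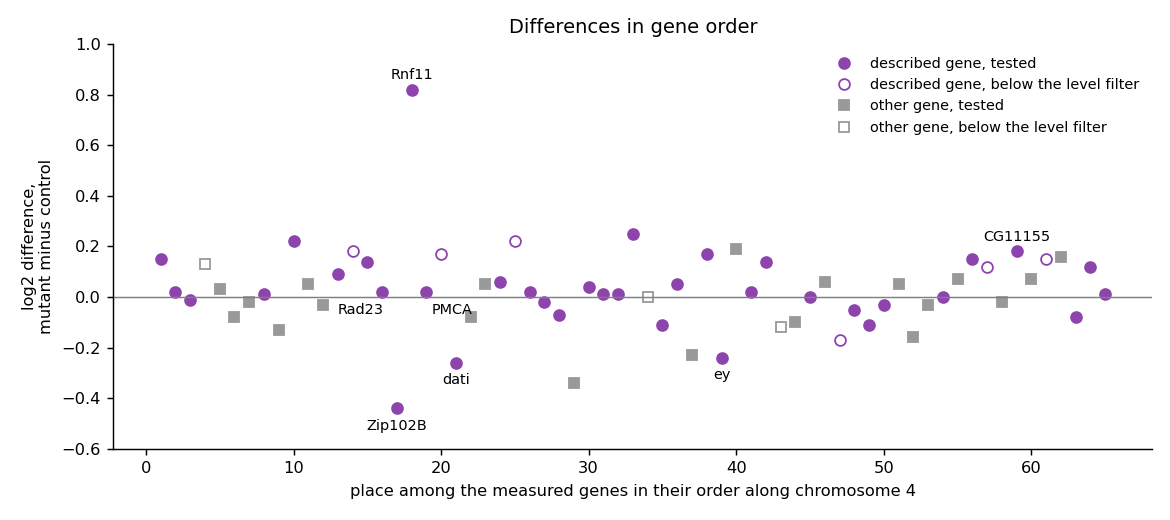
Log2 difference, mutant minus control (y axis), of the 65 measured genes of chromosome 4 in their order along the chromosome (x axis, place in the order, not distance); circles are the genes described here, squares the other genes, and open symbols genes below the level filter. Rnf11 (0.82) and Zip102B (-0.44) are adjacent extremes, and the other points lie between -0.34 and 0.25.

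The 6 genes below the level filter, zfh2, NfI, sv, Hcf, mGluR and Kif3C (a kinesin gene), had means between 3.05 and 3.52 and were not tested with the others. In zfh2, NfI, Hcf and Kif3C every mutant value was above every control value. For zfh2 the mutant arrays read 3.60, 3.54 and 3.75 and the control arrays 3.39, 3.35 and 3.48, a difference of 0.22. Hcf had 3.54, 3.45 and 3.64 in mutants, against 3.36, 3.38 and 3.37 in controls, a difference of 0.17. NfI had a difference of 0.18 and Kif3C one of 0.15. Of all 3100 genes below the filter, 10.2% had groups without overlap and 3.42% had them with the mutants higher, and of all 11982 measured genes 14.7% had groups without overlap, beside 7 of the 42. When limma was fitted with no filter on level, the adjusted p of these 6 genes lay between 0.623 for zfh2 and 0.841 for sv, and none was called, against 0.442% of all 11982 genes in that fit. At such levels a probeset may read little but background, so the sizes are uncertain.

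The genes of chromosome 4 also moved together from array to array within a genotype. Each gene's deviation from its own mean over the 6 arrays was taken, and the median over the 42 genes was 0.187, -0.008 and -0.134 on the mutant arrays 1 to 3 and -0.012, 0.029 and -0.085 on the control arrays 1 to 3. On mutant replicate 1, 35 of the 42 genes stood above their own mean, and on mutant replicate 3, 10 did. Among all 11982 measured genes, 6127 stood above their own mean on mutant replicate 1 and 5070 on mutant replicate 3. Over the other 23 genes of chromosome 4, whose values come from other probesets, the medians were 0.108, -0.027 and -0.122 on mutant arrays and -0.005, 0.115 and -0.023 on control arrays. Mutant replicate 1 was thus high and mutant replicate 3 low in both sets of genes.

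Mutant replicate 1 gave the highest of the 3 mutant values in 30 of the 36 tested genes (83.3%), against 39.5% of 8826 tested genes on other chromosomes. Mutant replicate 3 gave the lowest in 28 of 36 (77.8%), against 53.6% on other chromosomes, so part of the low values of that array was shared by the rest of the genome. Among the controls, replicate 3 was the lowest in 24 of 36 (66.7%), against 29.0% on other chromosomes. In the other 20 tested genes of chromosome 4, mutant replicate 1 was the highest mutant array in 14 (70%). Mutant replicate 3 was the lowest in 15 of those 20 (75%). Control replicate 3, however, was the lowest control array in only 8 of them (40%), and control replicate 1 in 9 (45%). The pattern of mutant replicate 1 crossed the role groups. Mutant replicate 1 was the highest mutant array for all 7 tested genes of cell maintenance, for all 5 of kinases and signalling and for 6 of 7 patterning factors, and for 1 of 5 synaptic genes.

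**Figure D5:**
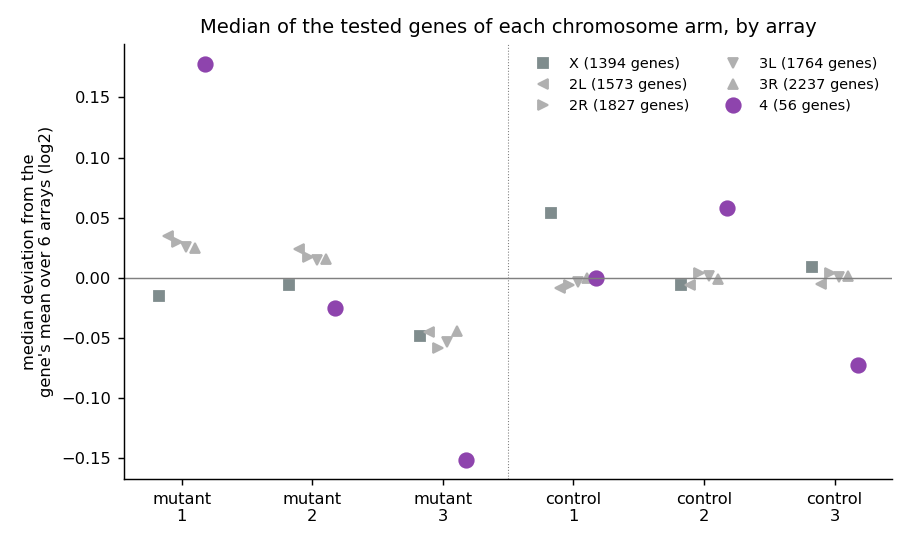
Median deviation of tested genes from their own mean over the 6 arrays (y axis, log2) for each chromosome arm on each array (x axis, mutant arrays left of control arrays); purple circles are the 56 tested genes of chromosome 4, grey symbols the other arms. The other arms span -0.058 to 0.054 over all 6 arrays; chromosome 4 lies outside that span on mutant replicates 1 (0.178) and 3 (-0.151) and on control replicates 2 (0.058) and 3 (-0.072).

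Over the 56 tested genes of chromosome 4 the array medians spanned 0.329 among mutants and 0.131 among controls. The medians of X, 2L, 2R, 3L and 3R, which rest on 1394 to 2237 genes each and so vary less by sampling, spanned 0.042 to 0.087 among mutants and 0.003 to 0.060 among controls. The SD of the tested genes described here had a median of 0.188 among mutants and 0.119 among controls, beside 0.110 and 0.121 over all tested genes. The SD was wider among mutants for 28 of the 36 and narrower for 8, ey and CG11155 among them. No test was made of the shift, which was seen in the same data, and no label records a batch that sets mutant replicate 1 or 3 apart. The actin 3' excess was 0.77, 0.94 and 0.90 on mutant arrays 1 to 3 and 0.72, 0.70 and 0.74 on control arrays 1 to 3. The mean level of 4 muscle markers, leaving out bt (a choice made after the values were seen, since bt lies on chromosome 4 itself), was 10.12, 10.13 and 10.64 on those mutant arrays and 9.38, 10.07 and 10.24 on those control arrays. The part of either in the shift was not tested.

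The shared shift was then taken out, as an alternative chosen after it was seen. On each array every chromosome 4 probeset was lowered by the median deviation of the other 20 tested genes of that chromosome, none of which is among the 36. The median SD of the 36 was then 0.078 among mutants and 0.090 among controls. Groups did not overlap for 9 of the 36 (8 higher and 1 lower in mutants), beside 16.4% of all tested genes. Nearly all of those genes lie on other chromosomes, which the step left as deposited, so that share is no like background for the 36. As deposited, 7.23% of all tested genes had groups without overlap and higher in mutants, and 9.09% lower. Of the 36, 3 had groups without overlap on the deposited scale. Rnf11 and Zip102B are among the 9, while the groups of CG11155 overlapped after the step. The step also moved the median difference of the 36 to 0.087, against 0.021 on the deposited scale. Rnf11 kept its call (difference 0.88, SE 0.09, limma adjusted p = 0.0134), and Zip102B had -0.38 and did not pass (SE 0.08, unadjusted p = 0.00276, limma adjusted p = 0.185). The fit took the shift of each array, a median over 20 genes, as known. Every SE and p after the step therefore leaves out the error of the shift. After the step, 5 of the 36 had an unadjusted p under 0.05, beside 9.13% of all tested genes, nearly all of them left as deposited. The 3 added were PlexB (0.21), Actbeta (0.22) and Syt7 (0.21), all higher like the moved median, and none passed (limma adjusted p = 0.452, 0.464 and 0.516). When 1 array was left out as well, the Rnf11 difference ran from 0.82 to 0.96, and its call held without control replicate 1 or control replicate 3 and was lost in the 4 others (limma adjusted p up to 0.105).

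Lists of genes outside the chromosome that act on it or with its products were measured in part, and no tested gene in them was called. Of 17 names listed as chromosome 4 and heterochromatin regulators, 13 were tested and 0 were called by limma. The 13 include msl-1, msl-2, msl-3, mle and mof, genes of the complex that acts on the male X chromosome. Those without a probeset of their own were egg (listed also as eggless), Su(var)3-9 and G9a. Of the 13, only JIL-1 had an unadjusted p under 0.05 (difference -0.44, unadjusted p = 0.00997, limma adjusted p = 0.347). The list's median difference was -0.050. In the Hedgehog pathway around ci, 0 of 9 tested genes were called, in the eye determination network around ey and toy 0 of 7, and in the Wnt pathway 0 of 2, with none at an unadjusted p under 0.05. Salivary gland glue genes and larval fat body proteins had mean levels between 13.89 and 14.23 on every array, and the 7 measured Y-linked genes all lay below the level filter. The 4 muscle markers outside the chromosome had a mean level of 10.12 to 10.64 on mutant arrays and 9.38 to 10.24 on control arrays, with 0 called by limma and 0 at an unadjusted p under 0.05. The fifth of the list, the chromosome 4 gene bt, had a difference of 0.19 that did not pass (limma adjusted p = 0.754). Imaginal disc markers had 6.76 to 6.90 on mutant arrays and 6.83 to 7.14 on control arrays, with 0 of 5 called.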

How the data were processed

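The deposited table holds log2 values, 1 per probeset and array, which the authors background-corrected, normalized and summarized by RMA, per the labels' design text (version not given in the sources used here). A filter on present calls is named there too, and the table holds no calls. RMA equalizes the arrays' distributions and so hides any change that most transcripts share. For arrays, their number limits the precision, here 3 against 3. Of 18952 probesets, 183 are controls, 13647 have 1 gene symbol, 402 several, and 4720 are not listed. The roX1 level was not analysed here, so it does not check the labels.

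Control probesets and the dimmest 40% were left out, and the remaining 11262 probesets were tested with limma 3.58.1 in R 4.3.3 (lmFit and eBayes, two-sided, Benjamini-Hochberg over all of them, called under 0.05). Chromosomes and gene order came from RefSeq (Release 6 plus ISO1 MT), whose coordinates are not printed. Alternatives were no or a 20% filter, quantile normalization, array weights, a replicate block, an eBayes trend, the mean of a gene's probesets and leaving out each array. The genes and lists were chosen with earlier results of these data known. By rule, all 49 genes are named, with array values for called genes, those at an unadjusted p under 0.05, the 12 brightest and ci, ey, toy and sv; other array values were chosen after they were seen. Only the level filter and the limma fit were tested on simulated data. Those data had independent noise in each probeset and no shift shared between genes on an array. Figures used matplotlib 3.10.9 in Python 3.11.15.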

Additional observations from a re-analysis of the deposited data

How the results depend on the processing

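The number of the 42 genes called was 1 with no filter or a 20% filter on level, quantile normalization, array weights, an eBayes trend, and relative to the other chromosome 4 genes. It was 0 under the replicate block, with the mean of a gene's probesets (limma), and, on the deposited scale, in every fit without 1 array (0 to 0), where 3 against 2 arrays remained. Relative to the other chromosome 4 genes, the Rnf11 call held without control replicate 1 or 3 (limma adjusted p = 0.0188 and 0.0351). In all fits with a count of 0 the lost call was that of Rnf11, whose difference stayed above 0. The median difference ran from -0.062 without mutant replicate 1 to 0.109 without mutant replicate 3. The SD of the median between single arrays was 0.121, which is not the spread of a difference between group means. The count of differences above 0 was 17 without mutant replicate 1 and 20 without control replicate 3. It ran from 17 to 36 over the fits without 1 array, and was 28 to 34 in the other alternatives. Of all tested probesets, 62 were called, 232 with array weights, 28 under the replicate block and 12 to 84 without 1 array. The replicate numbers mark no shared litter or day in the labels, and deviations of same-numbered arrays correlated at 0.053, -0.189 and 0.323, with mutant replicates 1 and 2 closest to controls of other numbers, so the numbers are not taken as pairs. The causes of the other changes were not tested.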
